A study of Homo sapiens with 8 samples.

Results

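The atrial and B-type natriuretic peptide genes, NPPA and NPPB, lie next to each other on chromosome 1, and the accessible regions around them were followed across cardiac differentiation of RUES2 cells, a human embryonic stem cell line. All peaks from 50 kb before to 50 kb after the gene pair were taken from the 8 ATAC-seq peak lists and merged into regions wherever they shared at least 1 bp. This gave 14 regions of the 285909 merged over chromosomes 1 to 22 and X, made of 74 of 892184 peaks. ATAC-seq marks open chromatin by the sites where a transposase can insert into DNA.

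The libraries covered 4 stages with 2 replicates each: hESC (ESC in the labels, day 0), mesoderm (MES, day 2), cardiac progenitor (CP, day 5) and cardiomyocyte (CM, day 14). All 4 stages had received the GSK3 inhibitor CHIR-99021 in E8 medium on the day before day 0, so the day 0 cells were not untreated. MES, CP and CM cells were then given CHIR-99021 in RPMI medium with BSA and ascorbic acid, CP and CM cells also the Wnt pathway inhibitor Xav-939, and CM cells were later moved to RPMI with B27. Each culture was a bulk population of a single cell line, and a weak peak in few cells cannot be told apart from a weak peak in all of them. Nothing in the labels says whether replicates were separate differentiations, so p-values measure the spread between these libraries, which may be technical. The lists held 55777 to 156179 peaks per library, fewest in CM replicate 2, and the number of sequenced reads was not used here. Of the CM marker promoters, 1 of 6 was listed in both hESC libraries and 5 of 6 in both CM libraries. Of the hESC marker promoters, 4 of 5 were listed in both hESC libraries and 0 of 5 in both CM libraries, while over all protein-coding genes the shares were 73.8% and 68.6%. MES marker promoters were listed in 5 of 5 cases in both libraries of every stage, and CP marker promoters in 3 of 5 cases in hESC and 5 of 5 in CM. Of 3 markers each, both hESC libraries listed 3 neural, 2 endoderm, 1 stromal and 0 endothelial promoters, and both CM libraries 2, 1, 1 and 0, and the part of other cell types in the results was not tested.

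NPPA and NPPB encode hormones that heart muscle secretes under stretch and that act through receptors with guanylyl cyclase activity to raise cGMP, which promotes salt excretion and vessel relaxation. Both genes are active in the embryonic heart, and NPPA is widely used as a marker of atrial and early ventricular muscle. GATA4, NKX2-5 and TBX5 are textbook regulators of NPPA.

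In GRCh38, NPPA (ENSG00000175206) spans chr1:11845709-11848345 and NPPB (ENSG00000120937) spans chr1:11857464-11858945, both on the minus strand. The canonical start sites, at 11847783 for NPPA and 11858945 for NPPB, are 11162 bp apart. Other starts in the window belonged to CLCN6, which encodes a late endosomal chloride transporter, the pseudogene SBF1P2, the lncRNA ENSG00000285646, the small nuclear RNA gene RNU5E-1 and the small RNA genes ENSG00000276470, ENSG00000278852 and ENSG00000275915. Regions were numbered 1 to 14 along the chromosome, region 5 being the NPPA promoter and region 7 the NPPB promoter.

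A short stretch of the NPPA promoter is shown. It was cut to run from the first to the last match of the NKX letters (CAAGTG or TAAGTG, either strand) in the 250 bp upstream of the start. The NKX matches at its ends therefore follow from this choice. The single NPPA promoter peak had its summit beside the stretch. The stretch is the minus strand of chr1:11847864-11847890, lies 107 to 81 bp upstream of the NPPA start and comes from the RefSeq promoter table of the same build. The promoter table matched 1 of the 2 genes, NPPA. Capitals mark, in order, the reverse complement of the NKX letters CAAGTG, the reverse complement of the GATA letters TGATAA, and CAAGTG itself.

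NPPA promoter stretch: CACTTGgcagctTTATCActgCAAGTG

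A further TGATAA lies 142 to 137 bp upstream of the start and an AP-1 match (TGANTCA) 240 to 234 bp upstream. CAAGTG or TAAGTG, on either strand, was found in 15.8% of the 35116 promoters when the 250 bp upstream of each start were searched, TGATAA in 6.66% and TGANTCA in 6.57%. TGATAA was added to the search after the sequences had been seen, whereas AGATAA, the GATA letters first chosen, had no match in these 250 bp or in the 200 bp around the summits of the 13 regions searched, all but region 7 (11.3% of all 285909 regions hold it).

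The 200 bp around the summits of regions 10, 4 and 11 are shown on the plus strand of GRCh38, region 10 because it was the single region that passed the test between CM and hESC, a call lost in 7 of 14 alternative settings, and regions 4 and 11 because they held the CTCF core motif. In region 10, 24.1 kb upstream of NPPB, capitals mark TGATAA at bases 12 to 17 and 59 to 64 and the reverse complement of the T-box letters AGGTGT at bases 89 to 94.

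Region 10, chr1:11882981-11883180: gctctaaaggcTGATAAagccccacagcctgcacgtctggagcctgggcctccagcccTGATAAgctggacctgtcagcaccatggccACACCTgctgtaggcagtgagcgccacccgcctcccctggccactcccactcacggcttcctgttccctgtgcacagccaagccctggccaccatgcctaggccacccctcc

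In region 4, within a CLCN6 intron 8.9 kb downstream of the NPPA start, capitals mark the CTCF core motif, which belongs to the factor that anchors chromatin loops.

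Region 4, chr1:11838754-11838953: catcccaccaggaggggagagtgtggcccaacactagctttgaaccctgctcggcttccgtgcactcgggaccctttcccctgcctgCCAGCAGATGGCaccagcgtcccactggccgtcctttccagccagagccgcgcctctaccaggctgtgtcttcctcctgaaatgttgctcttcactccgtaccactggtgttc

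In region 11, 35.1 kb upstream of NPPB, capitals mark a T-box match and then a CTCF core match on the opposite strand to that of region 4.

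Region 11, chr1:11893986-11894185: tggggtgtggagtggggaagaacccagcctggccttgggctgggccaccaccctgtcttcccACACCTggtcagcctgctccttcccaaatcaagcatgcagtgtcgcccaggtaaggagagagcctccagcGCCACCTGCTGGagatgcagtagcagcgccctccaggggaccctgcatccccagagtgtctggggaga

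The CTCF core was found in 2 of the 13 regions searched and in 2.03% of all regions, AGGTGT in 4 and in 13.2%, and TGATAA in 2 and in 7.92%. The NKX letters were found in 1 of the 13 regions, the NPPA promoter region, against 18.4% of all regions, and TGANTCA in 1, against 8.08%. The TEAD letters GGAATG, the MEF2 motif and the SRF CArG box had no match in the 13 regions, against 14.6%, 0.361% and 1.03% of all regions. A match describes letters in the sequence and is not evidence of a bound factor.

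**Figure D1:**
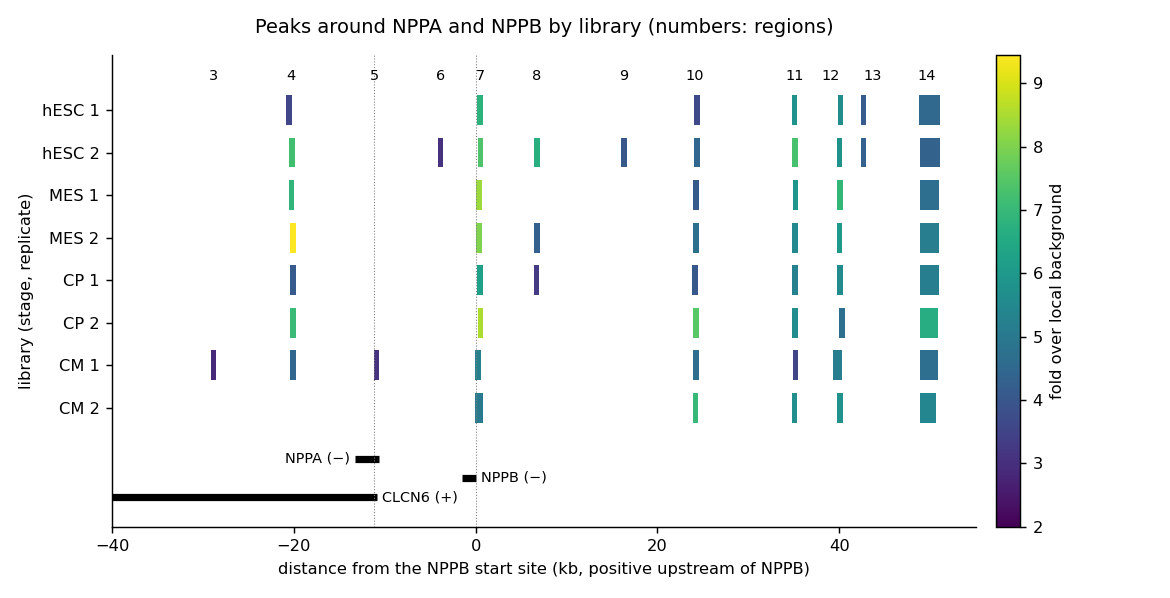
Peaks around NPPA and NPPB in each of the 8 libraries (rows), placed by distance from the NPPB start site in kb (positive upstream of NPPB) and coloured by fold over local background; short peaks are drawn at a minimum width so that they can be seen. Black bars are genes with their strand (the CLCN6 bar is cut at the left edge), dotted lines the NPPA and NPPB starts, and the numbers above are regions, of which 3 to 14 are drawn: regions 7, 10, 11, 12 and 14 form unbroken columns through all 8 libraries, and region 5, at the NPPA start, has a single peak in CM replicate 1.

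Accessible regions were listed around the pair at every stage. Of the 14 regions, 7 were listed in all 8 libraries, against 9.83% of all regions, and no region of the window was listed in both CM libraries and in neither hESC library, a pattern held by 3.15% of all regions. Region 13 was the single region listed in both hESC libraries and in no CM library (13.5% of all regions), and it was listed in no other library (3.01%). Regions 3 and 5 were listed in CM replicate 1 alone (5.31%) and regions 6 and 9 in hESC replicate 2 alone (11.0%). The libraries listed 9 and 12 regions of the window at the hESC stage, 8 and 9 at the MES stage, 9 and 8 at the CP stage and 10 and 7 at the CM stage, in the order of replicates 1 and 2. These patterns carry no test, since 2 against 2 libraries cannot give an exact two-sided permutation p below 0.333. Without hESC replicate 1, 4 regions were listed in hESC and not in CM, without CM replicate 1 it was 2, and without CM replicate 2, 2 regions were listed in CM and not in hESC.

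The NPPA promoter was listed in 1 of 8 libraries. In CM replicate 1 a peak at chr1:11847750-11848270 covered the NPPA start site with its summit 73 bp upstream, at a fold over local background of 3.11 and a −log10 q of 4.41. The recovered pileup was 22 reads (95% Poisson interval 13.8 to 33.3, counting error only) over a background of 6.40. This was a weak promoter peak: 1.13% of the 13325 promoter regions listed in that library had a lower −log10 q, and the median fold of those promoters was 6.89. The median fold of peaks near the calling threshold was 3.11 in CM replicate 2, whose lowest listed fold was 2.11, and 2.47 to 2.90 in the 6 hESC, MES and CP libraries. None of these 7 libraries listed the region, and the part of depth in this was not tested. The peak also overlaps an untranslated part of a CLCN6 transcript that runs through the NPPA promoter on the opposite strand, and ATAC-seq reads carry no strand of transcription.

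A peak was listed within 500 bp of the NPPB start in all 8 libraries, from the stem cell stage on, although it covered the start itself in CM alone. Region 7 (chr1:11858840-11859723) had a fold of 6.80 and 7.36 in the hESC libraries, 8.33 and 8.01 in those of MES, 6.20 and 8.52 at the CP stage and 5.22 and 5.04 at the CM stage. Both CM values were below all 6 others, and the means were 7.08 ± 0.39 (SD, n = 2) in hESC and 5.13 ± 0.13 (SD, n = 2) in CM. Each fold belongs to the summit of that library's peak. The summit lay 76 bp upstream of NPPB in CM replicate 2, against 460 bp in CM replicate 1 and 449 and 498 bp in hESC. Comparisons of region 7 between stages, here and below, therefore do not all compare the same position. After each library was centred on its median over the 28115 regions listed in all 8 libraries, the log2 difference CM minus hESC was −0.24 (95% interval −0.58 to 0.09, limma, adjusted p = 0.289), which did not pass the threshold. The recovered pileup was 33 and 63 reads in hESC and 49 and 27 reads in CM, before centring, so the groups overlapped in reads. With log2 pileup centred on each library's median in place of fold, the difference was 0.23 (limma, adjusted p = 0.462). Its positive sign therefore rests on the centring and does not follow from these reads alone.

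**Figure D2:**
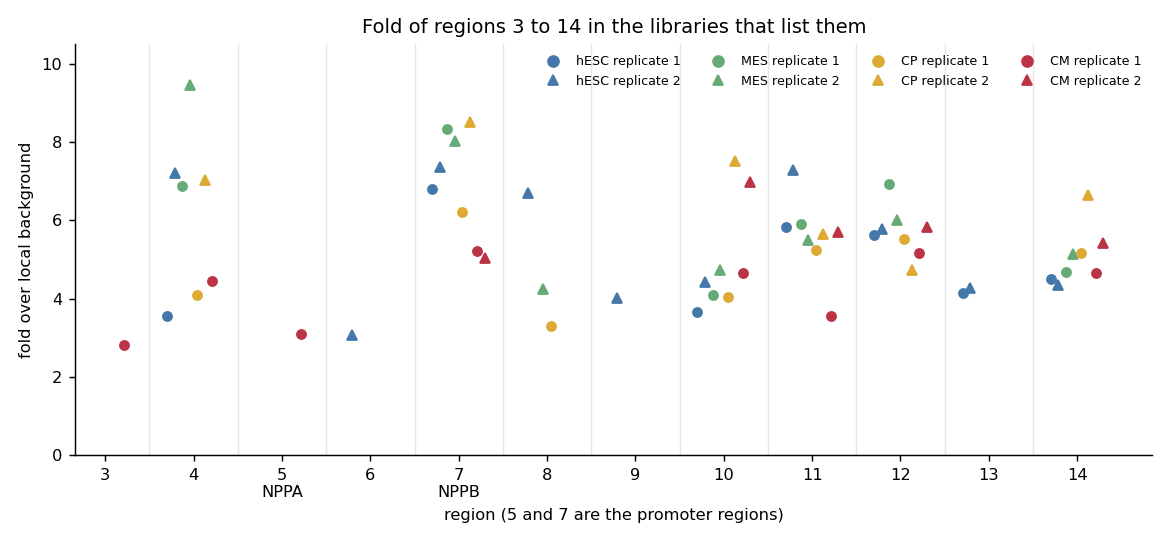
Fold over local background (linear axis from 0) of regions 3 to 14 in every library that lists it; colours are stages, circles replicate 1 and triangles replicate 2, and a missing symbol means that the peak was not listed. The CM symbols of region 7 (NPPB) are the lowest 2 of its 8, region 5 (NPPA) has a single CM symbol at 3.11, and the CP replicate 2 and CM replicate 2 symbols of region 10 stand above its other 6.

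The stages also differed in how far the NPPB promoter peak extended, a description with no test. In hESC the near edge of the peak was 303 and 324 bp upstream of the NPPB start, and in CP it was 322 and 356 bp upstream. In MES it came to 67 and 34 bp upstream, and in CM it passed the start site and reached 105 and 49 bp into NPPB. Peak edges depend on each library's own calling threshold, and reads had been extended to 200 bp. The part of this in the extents was not tested. The summit lay 449 to 535 bp upstream in 7 libraries and 76 bp upstream in CM replicate 2. A peak therefore covered the NPPB start in both CM libraries and in none of the other 6. Across 19962 protein-coding genes, 20 had this pattern (0.1%), and 62.5% had a start covered in all 8 libraries.

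This measure was added after the data had been seen. The 20 genes were A2M, ACACB, AQP1, CSRP3, FSD2, GASK1B, HBD, IL1RL2, KLHL38, LRRC17, MGAT4C, MYL3, MYOM1, MYPN, NPPB, PLN, ROM1, SLC6A13, TBX5 and TECRL. NPPB had the pattern without any single library, with −log10 q of at least 5 and with lists of equal length, but not when a peak within 50 bp or 100 bp of the start was counted, since MES peaks ended that close. The number of genes with the pattern rose to 39 without CP replicate 2, to 85 without CM replicate 2 and to 50 with lists of equal length. Leaving out the other libraries gave 20 to 28 genes.

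**Figure D3:**
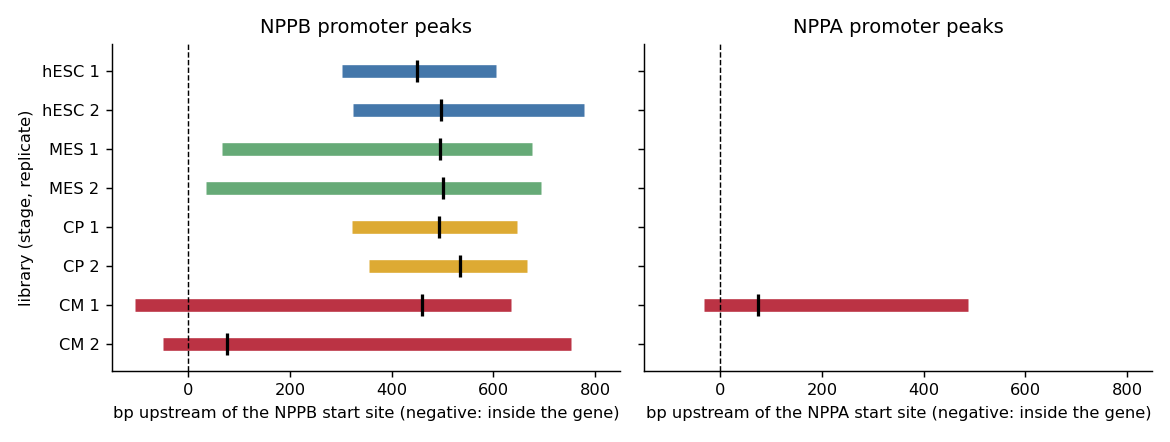
Extent of the peak at the NPPB promoter (left) and at the NPPA promoter (right) in each library (rows), in bp upstream of the start site (dashed line; negative values are inside the gene); black ticks are summits and colours are stages. The CM bars cross the NPPB start, the MES bars end 34 and 67 bp short of it and the hESC and CP bars at least 303 bp short, while the NPPA panel holds 1 bar.

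Late stages (CP and CM, n = 4) were also set against early stages (hESC and MES, n = 4) at each promoter with an exact two-sided permutation test, for which the smallest possible p is 0.0286. The test treats libraries of different stages as exchangeable, so it cannot tell a shared late difference from one of a single stage. The centred NPPB values were −0.18 and −0.30 in CM and −0.085 and 0.036 in CP. For NPPB the centred log2 fold was −0.13 ± 0.14 (SD) late and 0.05 ± 0.10 (SD) early, a difference of −0.19 (exact permutation p = 0.0857, 0.171 adjusted over the 2 promoters). Without CP replicate 2 the difference was −0.24 at the exact permutation p of 0.0286, and without CM replicate 2 it was −0.06 (exact permutation p = 0.514). With centred pileup in place of centred fold, the difference turned to 0.11 (exact permutation p = 0.457). For NPPA the difference was 0.24 (exact permutation p = 0.257, also 0.257 adjusted), with 7 of the 8 values set to the typical fold at the library's threshold because the peak was not listed, so it measures mainly those thresholds.

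Region 10, 24.1 kb upstream of NPPB (chr1:11882826-11883606), was the single region of the window that passed the test between hESC and CM, with a higher fold in CM. Its fold was 3.65 and 4.42 in the hESC libraries, 4.09 and 4.73 in those of MES, 4.03 and 7.51 at the CP stage and 4.66 and 6.99 at the CM stage. Both CM values were above both hESC values, although in this uncentred fold MES replicate 2 exceeded CM replicate 1 and the highest value was in CP replicate 2. On the centred log2 scale that was tested, MES replicate 2 (−0.75) lay below CM replicate 1 (−0.34). There CM replicate 2 was highest (0.17), while CP replicate 2 (−0.15) still exceeded CM replicate 1. The log2 difference CM minus hESC was 0.73 (SE 0.21, 95% interval 0.28 to 1.18, limma, adjusted p = 0.0378).

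It was 1 of 1766 regions called higher in CM, or 6.28% of the 28115 tested, while 1698 (6.04%) were called lower. The recovered pileup was 29 and 53 reads in hESC and 67 and 57 reads in CM, before centring. With log2 pileup centred on each library's median, the difference was 1.21 (limma, adjusted p = 0.000117). Its size therefore does not follow from these reads alone. The call was lost in 7 of 14 alternative settings, among them leaving out hESC replicate 1 (adjusted p = 0.189), hESC replicate 2 (0.0955), MES replicate 1 (0.0530), MES replicate 2 (0.0519) or CM replicate 2 (0.152), and not centring (log2 0.51, adjusted p = 0.333). In all of them CM stayed above hESC, by 0.51 to 1.21 on the log2 scale.

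The position of the summit in region 10 also differed between stages. It lay 24494 and 24416 bp upstream of NPPB in hESC and 24128 to 24156 bp upstream in the 6 MES, CP and CM libraries. The printed 200 bp were centred on the summit of CP replicate 2. The hESC summits fell outside them and all others inside, near the T-box match, but the hESC peaks covered that match as well. MES replicate 2 had 2 peaks in region 10, and the summit is that of the peak of higher −log10 q. The shift of the summit was seen after the values were known and was not tested. Each fold belongs to its own library's summit, so the test between CM and hESC compared different positions within region 10.

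The other regions listed in all libraries did not pass the test in any stage contrast. Region 14, at the promoter of the lncRNA ENSG00000285646 and of RNU5E-1, had a fold of 4.34 to 6.63 and a CM minus hESC difference of 0.40 (adjusted p = 0.100). Its summits lay 49649 and 50065 bp upstream of NPPB in hESC and 49569 and 49534 bp upstream in CM. That difference therefore compared different positions too. Region 11, with the CTCF core, had a fold of 5.83 and 7.27 in hESC and 3.55 and 5.71 in CM, a difference of −0.31 (95% interval −0.75 to 0.13). Region 12, 40.1 kb upstream of NPPB, had a fold of 4.72 to 6.92 and a difference of 0.17 (95% interval −0.25 to 0.59). The adjusted p-values are from limma. No region of the window was called between MES and hESC (0.879% of all regions tested), CP and hESC (2.16%), CP and MES (0.455%) or CM and CP (2.1%). The median CM minus hESC difference of the 7 regions was 0.18, and that of all regions tested was 0.10.

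**Figure D4:**
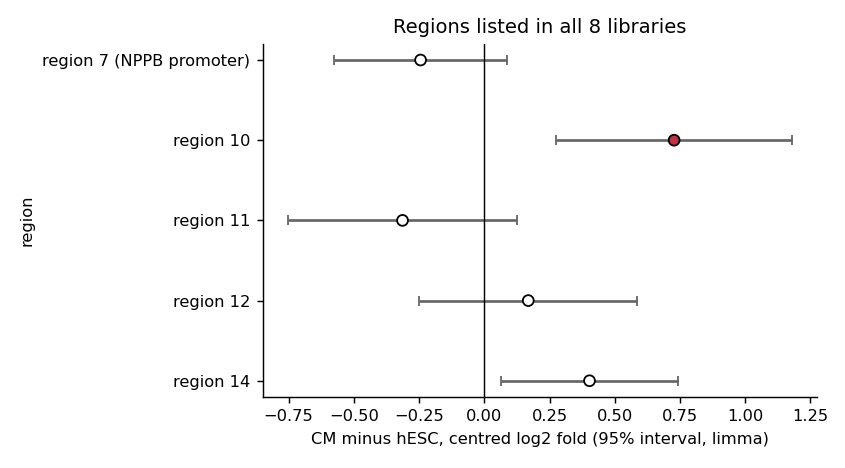
Difference CM minus hESC in centred log2 fold for 5 of the 7 regions listed in all 8 libraries, with 95% intervals from limma (2 libraries per stage); the filled point passed an adjusted p of 0.05 over all 28115 regions. Region 10 is filled at 0.73, and the interval of the NPPB promoter crosses 0.

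The other 6 regions beside the NPPA promoter were listed in some of the libraries. Region 4, the CTCF core region in CLCN6, reached the highest fold of the window, 9.45 in MES replicate 2. Its fold was 3.56 and 7.19 in hESC, 6.87 in MES replicate 1, 4.10 and 7.04 in CP and 4.45 in CM replicate 1, and CM replicate 2 did not list it. The hESC replicate 1 peak had its summit at 11838310, outside the printed 200 bp, and joined the region by its edge alone. Region 8, 6.7 kb upstream of NPPB, had a fold of 6.71 in hESC replicate 2, 4.25 in MES replicate 2 and 3.30 in CP replicate 1 and was listed in no CM library. Region 13, 42.7 kb upstream, had a fold of 4.15 and 4.27 in hESC. Regions 3 (CM replicate 1, fold 2.83), 6 (hESC replicate 2, 3.07) and 9 (hESC replicate 2, 4.02) were single peaks, with 18, 26 and 36 reads of pileup.

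The promoters of the natriuretic peptide pathway beyond NPPA and NPPB were mostly listed at every stage. Of its 14 genes, 11 had a promoter listed in both hESC libraries, 11 in both MES libraries, 11 in both CP libraries and 10 in both CM libraries (78.6% in hESC and 71.4% in CM). These shares stand beside 73.8% and 68.6% of all protein-coding genes. Of the 10 promoters tested, limma called 0 higher and 0 lower in CM than hESC, and their median log2 difference was 0.23.

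Among the ligands, NPPC, the C-type natriuretic peptide gene, had a fold of 4.81 and 3.58 in hESC and 4.81 and 5.71 in CM, with a log2 difference of 0.56 (limma, adjusted p = 0.0552). The promoter of OSTN, which encodes a ligand of the clearance receptor, was listed in no library. Among the receptors, NPR1, the receptor for both peptides of the pair, had a fold of 3.12 and 3.57 in hESC and 3.22 and 4.14 in CM (log2 difference 0.35, limma, adjusted p = 0.145). NPR2, the receptor for the NPPC product, differed by 0.15 (limma, adjusted p = 0.568). NPR3, the clearance receptor, was weak at 2.61 to 3.57 in the 7 libraries that listed it and was not listed in CM replicate 1.

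CORIN, the protease that activates the NPPA precursor, had a fold of 6.84 to 9.95 over the libraries, and PCSK6, which activates CORIN, differed by −0.20 (limma, adjusted p = 0.441). MME (neprilysin), which degrades the peptides, had a fold of 7.75 to 10.9 and a difference of −0.02 (95% interval −0.30 to 0.26). IDE, a further degrading enzyme, differed by 0.23, PRKG1, the cGMP-dependent kinase, by 0.22, and the phosphodiesterases PDE5A and PDE9A by 0.28 and 0.27, with adjusted p of 0.226 to 0.395 in limma. FURIN and PDE2A had no region within 500 bp of the canonical start.

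**Figure D5:**
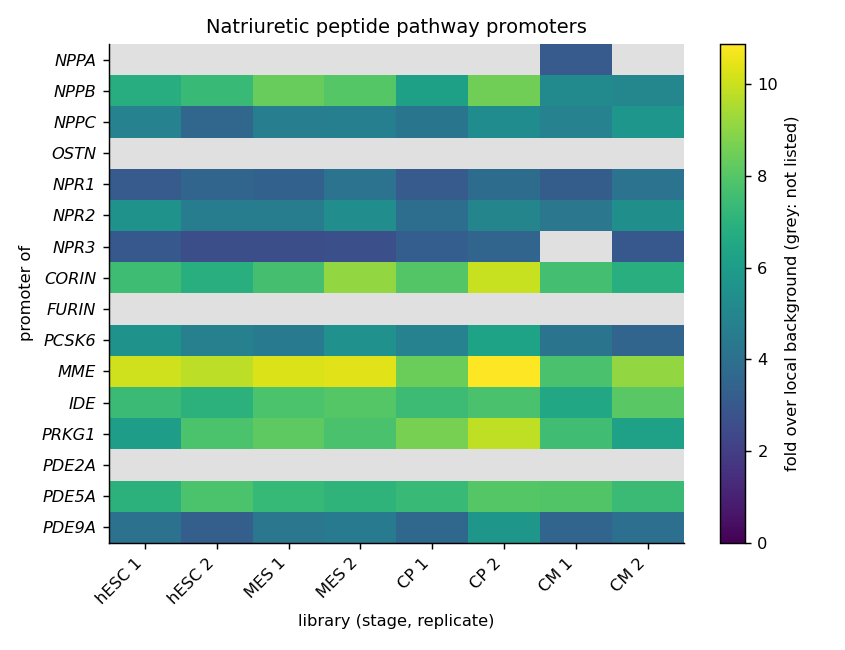
Fold over local background at the promoters of NPPA, NPPB and 14 other genes of the natriuretic peptide pathway (rows) in the 8 libraries (columns); grey means that no peak was listed within 500 bp of the canonical start. NPPA is grey in 7 of 8 libraries, while 11 of the 16 promoters have a peak in all 8.

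The promoters whose centred log2 fold followed that of NPPB most closely over the 8 libraries, among 13699 promoters listed in both CM libraries, were those of GLRA2 (Pearson r = 0.985), CDK7 (0.967), TNFSF13B (0.964), SULF1 (0.945) and DCLK3 (0.940). Like NPPB, each had lower folds in CM than in the other stages, for example 8.76 to 11.9 in hESC and MES and 6.10 and 5.65 in CM for GLRA2. For NPPA the closest were REST (0.992), OR52B2 (0.987), RASA1 (0.986), GOLIM4 (0.985) and CBX1 (0.984), a likeness that rests on the library thresholds, since 7 of the 8 NPPA values were set to them. The 8 points share the centring of each library, and these correlations are descriptions with no test.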

How the data were processed

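ATAC-seq libraries from RUES2 cells at 4 stages of cardiac differentiation, 2 per stage, were analysed from the authors' peak lists. The authors mapped paired reads to hg38 with BWA-MEM (BWA 0.7.13 in the submitters' processing notes), kept primary alignments with MAPQ above 30 and took out duplicates (Picard). Each library then had its own MACS2 2.1.0 run (q 0.01, reads shifted upstream by 100 bp and extended to 200 bp), which centres each read on its transposase cut. The deposited columns used were the fold ratio of pileup to local background and the −log10 p-value and −log10 q-value, and the deposited display score was not used. An unlisted peak is one that did not pass q 0.01, so its value is unknown, not 0.

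A region took the fold of its peak of highest −log10 q in each library. The fold is (pileup + 1)/(background + 1), and whole-read pileups were recovered from fold and p for 100% of peaks. Regions listed in all 8 libraries were fitted in limma 3.58.1 (R 4.3.3) on log2 fold centred on each library's median, with 4 stage means, a mean-variance trend and Benjamini-Hochberg adjustment over 28115 regions at 0.05. The code was tested on simulated data. Promoter regions lay within 500 bp of the canonical GENCODE 44 start. Unlisted libraries took, in the permutation test and the promoter correlations, the median fold of that library's peaks with −log10 q under 2.5. Peak counts (55777 to 156179) and typical pileup at the threshold (10 to 20 reads) set the precision, and intervals on reads cover counting error only. Genes named were NPPA, NPPB, those with a start in the window, the pathway list and the 5 most alike promoters of each. The members, gene lists, motifs and tests were chosen with earlier results of these data known. 2 of the 14 regions enter the counts, but their values are not reported here. Alternatives covered the peak threshold, list length, merging, window, centring, pileup, unlisted values, replicate block and leaving out each library. Tests on pileup used log2 pileup centred on each library's median, as for fold.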

Additional observations from a re-analysis of the deposited data

How the results depend on the processing

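Limits included 2 libraries per stage and unequal lists, the shortest being that of CM replicate 2. With lists of equal length the window held 9 regions, 0 listed in both hESC libraries and no CM library and 4 in every library; the 25 kb window gave 8, 0 and 2, and the 100 kb window 32 and 2, with 1 region in both CM libraries and no hESC library. When either library of a stage was enough, 2 regions were listed in CM and not hESC and 4 in hESC and not CM. Leaving out each library in turn gave 12 to 14 regions, 7 to 8 in every library, 0 to 2 in CM and not hESC and 1 to 4 in hESC and not CM. The calls over all regions were 129 higher and 1837 lower in CM when not centred (6.56% of calls higher, against 51.0% centred), which moved the median of all regions from 0.10 to −0.12. They were 4835 and 2217 for recovered pileup (68.6%), 10367 and 19194 for regions listed in at least 2 libraries with unlisted values at the threshold (35.1%; region 10 then had adjusted p = 0.0699), and, leaving out each library, 484 to 2646 and 519 to 2220. Directions turned for region 12 (−0.0515) when not centred. With centred pileup they turned for region 12 (−0.0322), region 7 (0.23) and the late against early difference of NPPB (0.11). For region 11 the direction turned without CM replicate 1 (0.0047), against −0.501 without CM replicate 2. Of these, none passed the threshold in either setting. The late against early difference of NPPB ranged from −0.243, without CP replicate 2, to −0.0602, without CM replicate 2. Start sites covered in both CM libraries and in no other numbered 20 to 85 without single libraries and 50 with lists of equal length. The causes of these differences were not tested.

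Replicate numbers were shared between stages, and the labels do not say whether they pair the libraries. The deviations of same-numbered libraries correlated at −0.12 to 0.19, and at 0.13 to 0.19 among hESC, MES and CP. With a replicate block in limma, 1938 regions were higher and 1885 lower in CM, and region 10 had adjusted p = 0.0159; in the blocked exact permutation test p was 0.333 for NPPA and 0.111 for NPPB.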
